A study of Mus musculus with 84 samples.

Results

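The matrix proteases and their inhibitors described here are 50 genes of the mouse, out of 21851 protein-coding genes: 22 matrix metalloproteinases (Mmp), 19 Adamts proteases, 5 Adamts-like genes (Adamtsl) and 4 tissue inhibitors of metalloproteinases (Timp). They were taken by gene symbol alone from the GENCODE annotation of GRCm38, which lists Mmp1a as a polymorphic pseudogene and so leaves it out. What was measured is whether a promoter, 2000 bp either side of each start site, held a peak of a histone mark in adipocyte nuclei, and which percentage of that window peaks covered. The marks were H3K4me3, which lies on promoters in use or ready for use, H3K27ac of active promoters and enhancers, H3K4me1 of enhancers, and H3K27me3, the mark of Polycomb silencing.

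All mice were male AdipoERCre x NuTRAP animals on the background that the labels spell C576BL6, given tamoxifen at 4–5 weeks of age, so that Cre under the control of Adipoq labelled adipocyte nuclei with biotin before any diet began. Nuclei came from frozen epididymal fat, and the marks were assayed by CUT&Tag, in which antibodies tether a transposase to the mark. Control groups on chow were 18 (C), 26 (CC_s), 31 (CC_l) and 39 weeks old (CCC). Per the paper, controls ate a low-fat chow during the high-fat phase, and all mice received a different chow during the weight-loss period. CC_s and CCC thus differed from C and CC_l in type of chow as well as in age. Obesity was induced with high-fat diet for 12 weeks, to an age of 18 weeks (H), or for 25 weeks, to an age of 31 weeks (HH), and after weight loss on 8 further weeks of chow the corresponding groups were 26 (HC) and 39 weeks old (HHC). There were 84 libraries, 21 for H3K4me3, 21 for H3K27ac, 22 for H3K4me1 and 20 for H3K27me3, and 20 of the 32 groups held 3 libraries and 12 held 2. Each library is 1 peak list of 11249 to 46397 peaks with unknown sequencing depth, so a promoter without a peak is not shown to lack the mark. The 8 adipocyte marker genes, among them Adipoq and Plin1, carried H3K4me3 in every chow library. For 4 H3K4me3 libraries of the 25-week cohort the title and the treatment entry of the labels name different groups, and the title was used.

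Matrix metalloproteinases are zinc endopeptidases, secreted as inactive precursors or anchored in the membrane, that cut collagens and other matrix proteins. ADAMTS enzymes are secreted relatives, some of which cut proteoglycans such as aggrecan and versican while others trim procollagen, and the ADAMTS-like proteins lack the catalytic part. TIMP proteins bind the active site of these enzymes and block it. In fat, adipocytes sit in a basement membrane and a collagen network that is remodelled as the cells enlarge and shrink, and stromal and immune cells of the tissue also make these enzymes.

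In chow libraries the 50 promoters were less often acetylated and more often under H3K27me3 than protein-coding promoters in general. H3K4me3 was present in more than 50% of the chow libraries at 28 of them, or 56%, beside 57.6% of all promoters. The same held for H3K27ac at 14 (28% beside 40.6%), for H3K4me1 at 12 (24% beside 13.7%) and for H3K27me3 at 18 (36% beside 15.0%). By combination, 12 promoters had H3K4me3 with H3K27ac, 9 had H3K4me3 without H3K27ac or H3K27me3, 7 had H3K4me3 with H3K27me3, 11 had H3K27me3 without H3K4me3, 2 had only H3K27ac or H3K4me1, and 9 had none of the marks in most libraries. H3K4me3 with H3K27me3, often called bivalent, thus took 14% of the members beside 4.39% of all promoters. The majority was taken for each mark separately. At Mmp14 and Adamtsl5 both marks were listed together in 5 of 10 chow mice, matched by group and replicate number. These are descriptions of the list, with no test, since genes of 1 family are not replicates.

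**Figure D1:**
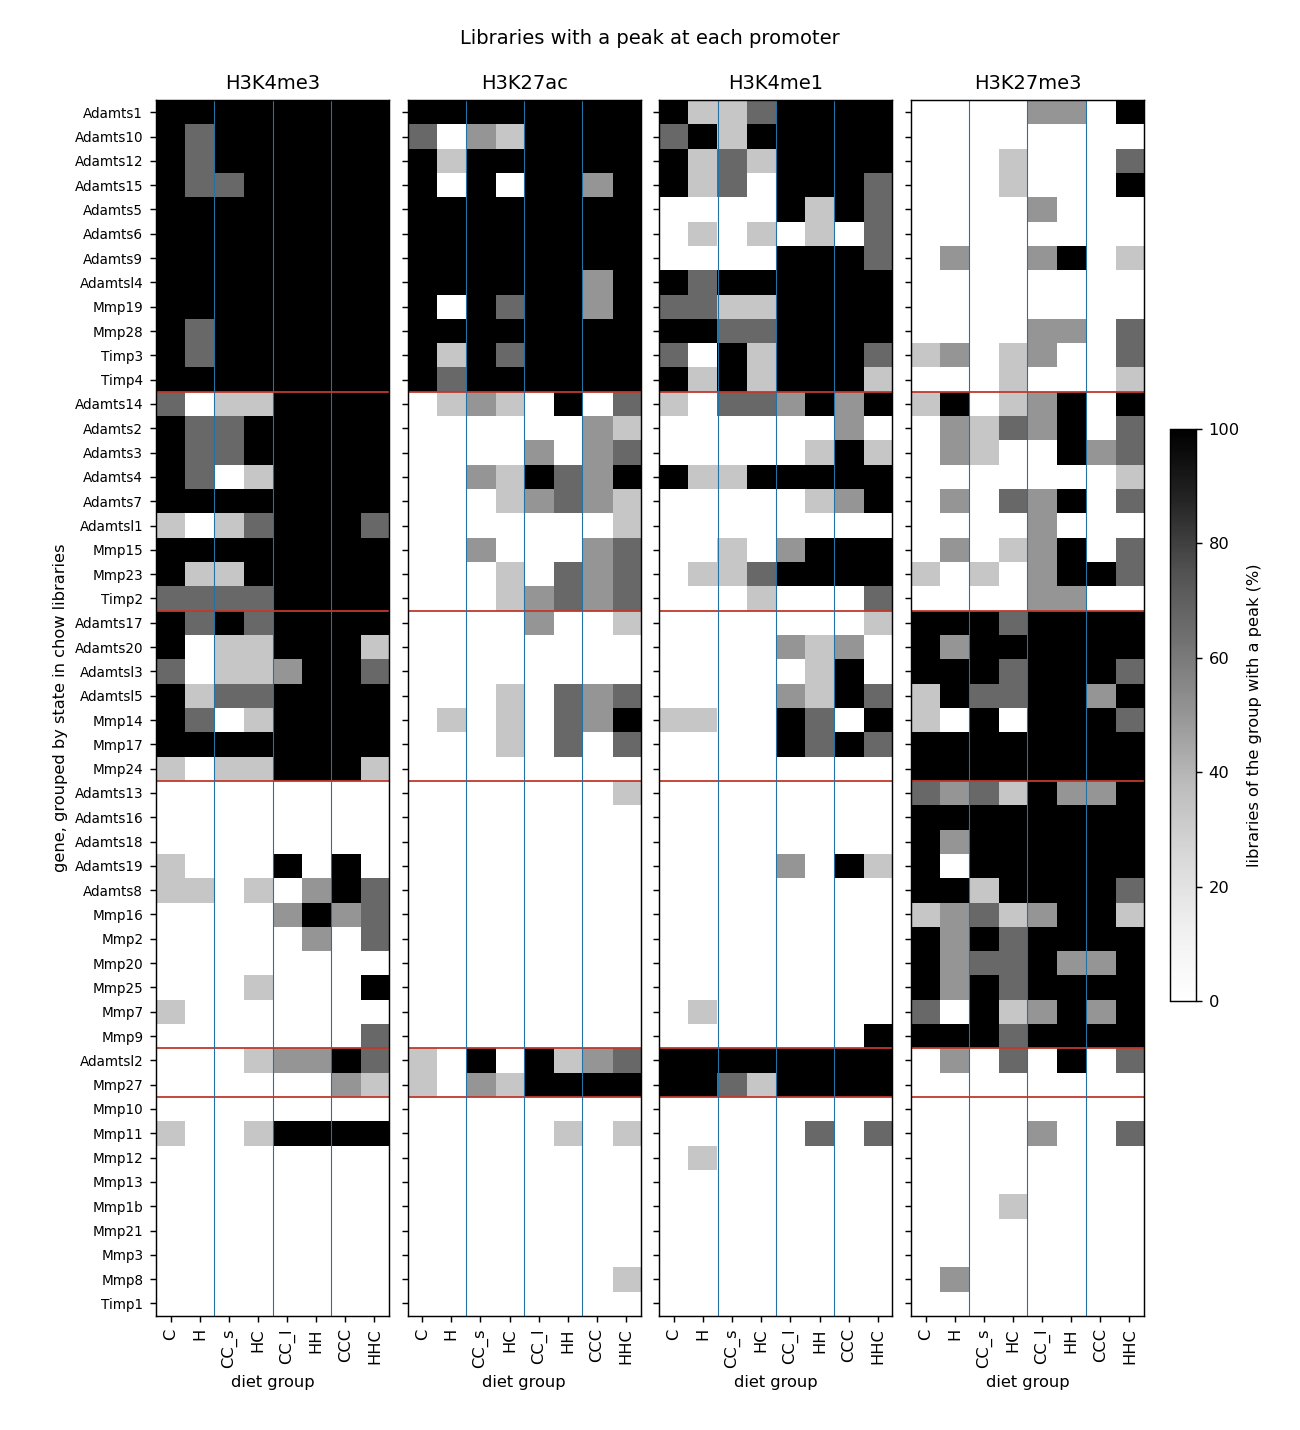
Percentage of the libraries of each diet group (columns) with a peak at each of the 50 promoters (rows), for 4 marks, from white at 0 to black at 100. Red lines separate the 6 combinations of marks in most chow libraries, from the 12 promoters with H3K4me3 and H3K27ac at the top to the 9 with none in most of them at the bottom. Vertical lines separate age-matched pairs of groups.

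The secreted collagenases and the stromelysins Mmp3 and Mmp10 were among the genes with none of the marks in most chow libraries. Mmp13 and Mmp8 (collagenases), Mmp3 and Mmp10 (stromelysins), Mmp12 (macrophage elastase), Mmp1b, Mmp27, Mmp20 (enamelysin) and Mmp7 (matrilysin) form 1 cluster of 9 genes on chromosome 9, from 7272514 to 7699585 in GRCm38, a span of 427.1 kb. Mmp3, Mmp10 and Mmp13 had no peak of any mark in any of the 84 libraries, as did Mmp21 and Timp1 elsewhere, so that 5 of 50 members (10.0%) were without a peak throughout, beside 11.95% of all promoters. Mmp12 had a single H3K4me1 peak, in an H library with 21.1% of its window covered, and no H3K4me3 peak in 21 libraries. Within the cluster peaks of H3K4me3 covered a median of 0.246% of the span per library, those of H3K27ac 0.660%, those of H3K4me1 0.726% and those of H3K27me3 1.34%.

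Letters of the AP-1 motif, the binding sequence of Fos and Jun proteins, were a feature that the promoters of this cluster shared and that had no part in the choice of the genes. RefSeq promoter sequences of GRCm38.p6, each 250 bases before to 50 after a start site, were matched for 35 of the 50 members, with 38 promoters, all 38 with a start at most 251 bp from one whose window was measured. Not matched were Adamts4, Adamts5, Adamts6, Adamts7, Adamts8, Adamts10, Adamts15, Adamts16, Adamts19, Adamtsl1, Mmp2, Mmp9, Mmp16, Mmp17 and Mmp19. TGANTCA, which reads the same on both strands, was found in 7 of the 38 (18.4%) beside 7.0% of 20143 protein-coding promoters, and all 7 belonged to the chromosome 9 cluster, with none among the 26 matched members elsewhere. TATAAA on either strand was found in 11 of the 38 (28.95%) beside 12.15%, and the 7 promoters with TGANTCA all held it too, a combination found in 1.44% of all promoters. The letters of TGANTCA began 35 bases before the start site in Mmp13, 44 in Mmp12, 93 in Mmp1b, 46 in Mmp3, 63 in Mmp10, 95 in Mmp20 and 63 in Mmp7. The 7 stretches are shown from 120 bases before the start to 10 after it, because they set side by side the shared letters, in capitals for TGANTCA and for TATAAA: chr9:7272394-7272523, chr9:7347254-7347383, chr9:7388017-7388146 on the minus strand, chr9:7445702-7445831, chr9:7502222-7502351, chr9:7628111-7628240 and chr9:7691970-7692099, in the order of the lines.
Mmp13: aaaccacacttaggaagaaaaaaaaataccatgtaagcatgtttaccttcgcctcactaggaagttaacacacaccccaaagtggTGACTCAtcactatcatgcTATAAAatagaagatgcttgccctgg
Mmp12: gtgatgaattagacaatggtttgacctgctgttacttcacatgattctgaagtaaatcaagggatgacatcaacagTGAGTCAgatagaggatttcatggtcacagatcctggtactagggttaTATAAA
Mmp1b: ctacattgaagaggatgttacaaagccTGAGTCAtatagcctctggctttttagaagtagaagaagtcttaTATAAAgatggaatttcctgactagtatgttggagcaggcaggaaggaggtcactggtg
Mmp3: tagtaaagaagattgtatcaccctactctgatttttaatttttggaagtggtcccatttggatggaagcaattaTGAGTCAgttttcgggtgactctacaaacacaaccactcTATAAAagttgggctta
Mmp10: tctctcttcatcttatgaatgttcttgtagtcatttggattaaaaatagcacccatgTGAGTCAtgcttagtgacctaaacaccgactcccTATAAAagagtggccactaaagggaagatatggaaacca
Mmp20: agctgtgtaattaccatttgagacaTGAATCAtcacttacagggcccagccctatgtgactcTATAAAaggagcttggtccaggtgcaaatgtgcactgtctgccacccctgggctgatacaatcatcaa
Mmp7: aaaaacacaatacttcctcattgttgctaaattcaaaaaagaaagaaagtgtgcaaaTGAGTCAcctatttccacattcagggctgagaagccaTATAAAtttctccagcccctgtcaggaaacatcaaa

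A match is only a match of letters, and no factor was assayed. Mmp12 is shown at the downstream of its 2 RefSeq starts, and the letters were not in the window of the upstream one. Mmp8 and Mmp27, the other members of the cluster, held TGANTCA in neither window. Of the 7 genes, Mmp20 and Mmp7 had H3K27me3 in most chow libraries and the others had none of the marks in most.

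Peaks in the cluster lay mainly in its distal part, around Mmp27, Mmp20 and Mmp7. Mmp27, a secreted metalloproteinase of little studied function, had H3K4me1 at its promoter in 19 of 22 libraries and H3K27ac in 13 of 21, but H3K4me3 in 2 of 21 and H3K27me3 in none of 20. Where no H3K27ac peak was listed at Mmp27 all 8 libraries were of the 12-week cohort: all 3 H, 2 of 3 HC, 2 of 3 C and 1 of 2 CC_s libraries lacked it, while every CC_l, HH, CCC and HHC library had it. The H3K27ac coverage of its window was 54.1% and 60.8% in CC_l, 28.4%, 42.4% and 91.4% in HH, 69.9% and 25.3% in CCC, and 42.6%, 54.05% and 31.65% in HHC. Between Mmp27 and Mmp20, at chr9:7593666-7596151, H3K4me3 peaks were listed in 19 of 21 libraries and H3K27ac in 15 of 21, with no annotated protein-coding start there. Further on, H3K27me3 peaks were listed in 16 of 20 libraries in a stretch that includes the start of Mmp20 (chr9:7624457-7630461), and in 14 of 20 in one that includes the start of Mmp7 (chr9:7686881-7696633). Within the promoter windows they were listed in 15 of 20 libraries at Mmp20 and in 13 of 20 at Mmp7.

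**Figure D2:**
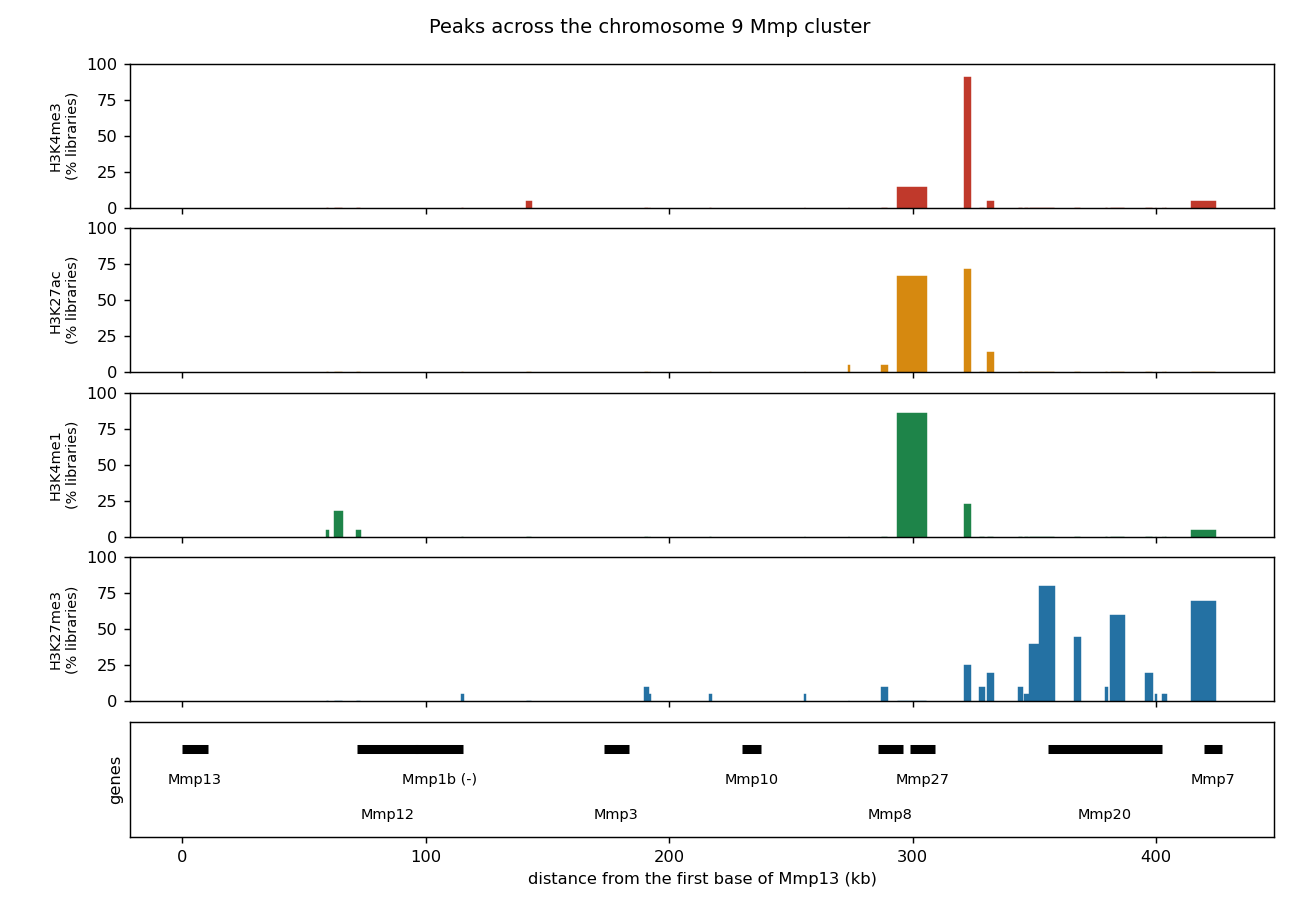
Percentage of libraries with a peak in each merged peak region (bars, as wide as the region) along the chromosome 9 Mmp cluster, against the distance in kb from the first base of Mmp13, with the 9 genes drawn below. Active marks are seen at Mmp27 and between Mmp27 and Mmp20, H3K27me3 over Mmp20 and Mmp7, and the part from Mmp13 to Mmp8 is nearly empty.

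CpG content differed between the combinations of marks. The ratio of observed to expected CpG had a median of 0.139 over the 10 matched promoters of genes with none of the marks in most chow libraries. It was 0.218 over the 6 with H3K27me3 without H3K4me3. Both sets include promoters of the chromosome 9 cluster, with Mmp12 and Mmp7 at 2 starts each. Outside the cluster the ratio in the first set was 0.0904 at Mmp21, 0.384 at Timp1 and 0.573 at Mmp11. Mmp11 had H3K4me3 in 5 of 10 chow libraries, just short of most. Among those with H3K27me3 it was 0.0897 at Adamts13, 0.612 at Mmp25 and 0.712 at Adamts18, with 5 of the 11 genes of that state matched. It was 0.838 over the 6 with H3K4me3 and H3K27me3, 0.782 over the 7 with H3K4me3 without the other 2 marks and 0.658 over the 7 with H3K4me3 and H3K27ac, beside 0.588 for all promoters. Timp4 at 0.104 and Adamts12 at 0.253 were the lowest of the acetylated promoters, and Adamts14 had the highest ratio of the members at 1.01.

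**Figure D3:**
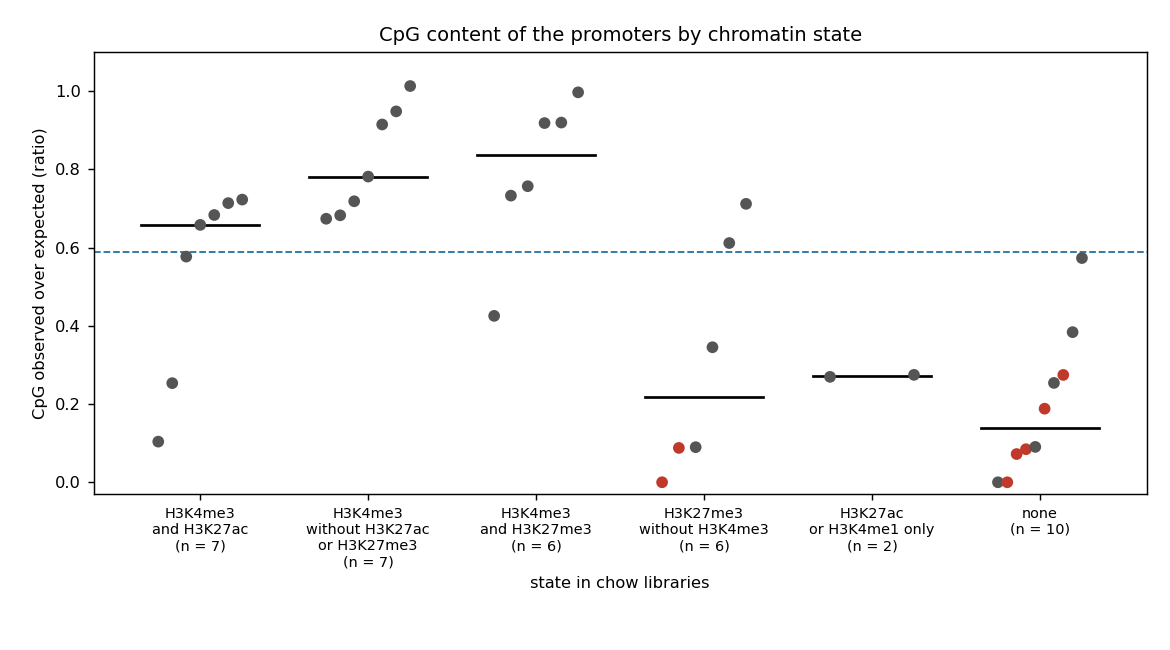
Ratio of observed to expected CpG in the 300 bases of each matched member promoter (points, 38 in all), by combination of marks in chow libraries, with the median of each group as a bar and that of all protein-coding promoters as a dashed line at 0.588. Red points are the 7 promoters with TGANTCA, all at or below 0.274.

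The gelatinases Mmp2 and Mmp9, which cut denatured collagen and collagen IV, carried H3K27me3 in all 10 chow libraries and H3K4me3 in none of them. Mmp9 (chromosome 2, 164940780 to 164955850) had its window covered by H3K27me3 from 70.7% to 100% in chow libraries of all ages. After weight loss from the long diet, H3K4me1 appeared over the start of Mmp9: 86.6%, 69.5% and 80.4% of the window was covered in the 3 HHC libraries and none in any other of the 22 libraries. H3K4me3 was also present there in 2 HHC libraries, at 50.9% and 95.1%, and in no other, and H3K27me3 remained at 100%, 100% and 71.4%. A promoter is called gained where no age-matched chow library had the mark and no library of the diet group lacked it, and lost for the reverse; H3K4me1 was gained in this comparison at 3.98% of all promoters and at 2 of the 50 members, Mmp9 and Mmp14. The exact permutation test over both cohorts, with labels exchanged within a cohort, gave p = 0.1 for the coverage of Mmp9 and 1.0 after Benjamini-Hochberg adjustment over all promoters. Retaining an equal number of peaks in every library, those of highest signal, left the H3K4me1 peak in 2 of 3 HHC libraries and ended the call.

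Membrane-type enzymes act at the cell surface, and Mmp14 activates Mmp2 and cuts fibrillar collagen. Mmp25 (chromosome 17, 23628311 to 23645277), a GPI-anchored enzyme best known from neutrophils, was the 1 member that gained H3K4me3, a gain found at 1.39% of all promoters in HHC against CCC. Its window was covered to 49.7%, 33.6% and 24.4% in the HHC libraries, to 25.8% in 1 of 3 HC libraries, and in no library of any other group. Counted from the start of Mmp25, the HHC peaks reached from -814, -365 and -331 to 1175, 979 and 645 bases. H3K27me3 lay over the same window at 73.0%, 93.0% and 63.5% in HHC and at 62.6% and 77.4% in CCC, so both marks were listed for all 3 HHC mice. The exact permutation p over both cohorts was 0.05 for presence and for coverage, and 1.0 adjusted. With equal numbers of peaks no HHC library had the H3K4me3 peak. The promoter is shown for its CpGs, in capitals, at chr17:23645220-23645519 on the minus strand, with a ratio of observed to expected CpG of 0.612.
Mmp25: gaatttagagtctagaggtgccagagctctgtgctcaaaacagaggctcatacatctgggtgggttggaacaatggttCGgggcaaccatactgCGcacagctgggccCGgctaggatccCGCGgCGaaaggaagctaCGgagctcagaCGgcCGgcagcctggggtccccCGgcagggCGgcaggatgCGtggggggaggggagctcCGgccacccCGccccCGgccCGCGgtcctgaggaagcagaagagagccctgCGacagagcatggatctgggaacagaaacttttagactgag

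Mmp14 (chromosome 14, 54431612 to 54445364) differed in its marks between groups, chow groups included. H3K4me3 was present in 15 of 21 libraries and covered 41%, 65.9% and 31.1% of its window in C but nothing in the 3 CC_s libraries, and 36.9% and 69.9% in CC_l, 25.1% and 74.5% in CCC, and 64.2%, 100% and 83.9% in HHC. The loss between the 2 chow groups C and CC_s, which differed in age and type of chow but had no high-fat diet, was shared by 1.73% of all promoters and by Adamts4 among the members. H3K4me1 covered 37.6%, 27.8% and 87.9% of the Mmp14 window in HHC and nothing in CCC, but it also covered 30.2% and 25.2% in the younger chow group CC_l. The absence from CCC was itself a difference between chow groups, since H3K4me1 at Mmp14 met the rule for a loss between CC_l and CCC, as 0.572% of promoters did. With equal numbers of peaks 1 of 3 HHC libraries had the H3K4me1 peak, which ended the call. H3K27me3 covered 19.2%, 25.3% and 27.4% in CC_s and nothing in HC, a loss shared by 0.828% of promoters, and its presence gave an exact permutation p of 0.05, 1.0 adjusted. On chow it was also listed in only 1 of 3 C libraries, and it was in 0 of 2 H libraries. In HC replicate 1 an H3K27me3 peak lay 2243 to 3490 bp after the start, just past the edge of the window. The H3K27me3 peak lay over the start site itself in 4 of 20 libraries, and in a window of 500 bp the H3K27me3 loss was not called. H3K27ac at Mmp14 was absent from the 9 chow libraries but for 1 CCC library at 13.4%, and covered 88.2%, 27.8% and 86.95% in HHC, 83.9%, 35.45% and none in HH, 56.3% in 1 of 3 HC and 1.42% in 1 of 3 H libraries. The 2 H3K27ac comparisons gave exact permutation p = 0.25 in obese mice and p = 0.1 after weight loss. Its promoter follows with CpGs in capitals, at chr14:54431348-54431647.
Mmp14: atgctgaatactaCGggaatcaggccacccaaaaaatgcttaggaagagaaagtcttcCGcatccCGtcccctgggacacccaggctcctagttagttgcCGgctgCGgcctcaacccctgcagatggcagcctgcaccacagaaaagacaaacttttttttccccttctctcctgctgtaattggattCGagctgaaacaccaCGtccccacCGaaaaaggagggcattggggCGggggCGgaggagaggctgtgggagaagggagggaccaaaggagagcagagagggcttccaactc

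**Figure D4:**
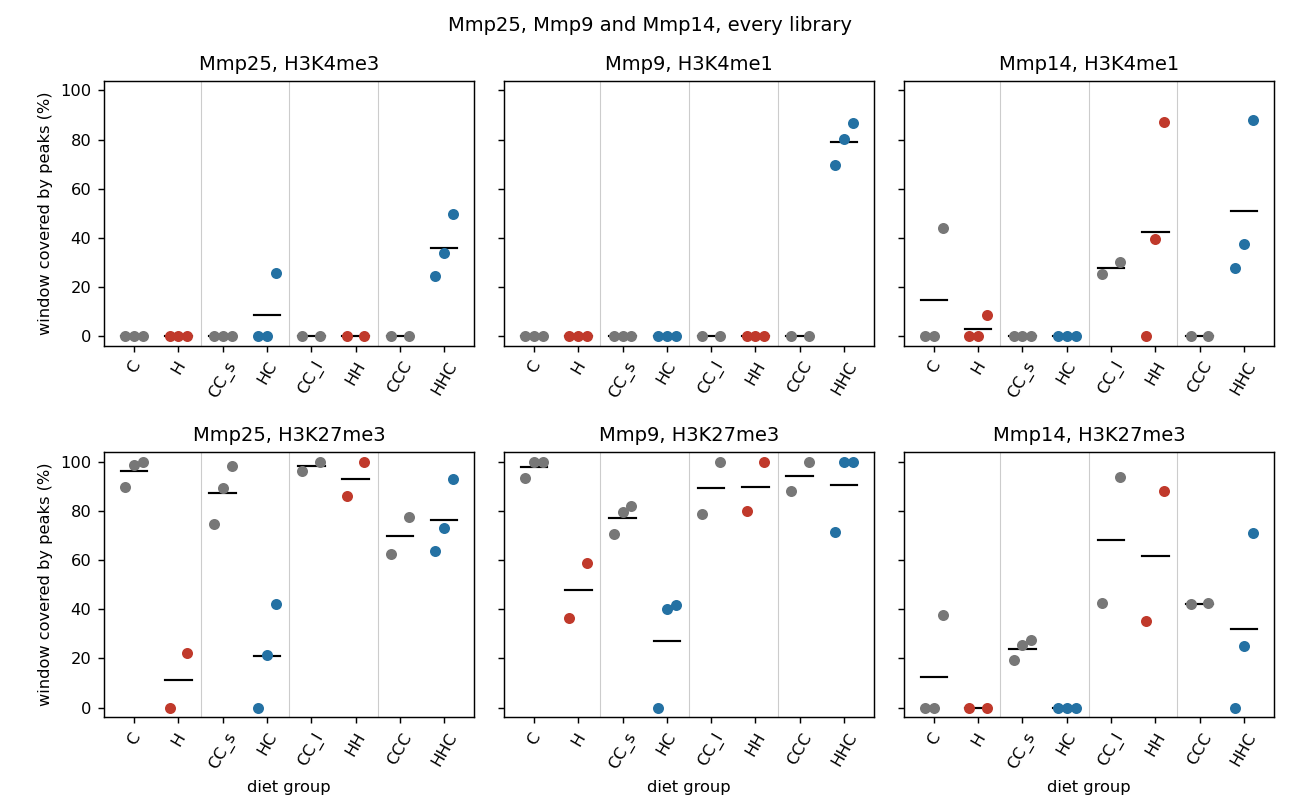
Percentage of the promoter window covered by peaks in every library (points; grey for chow, red for obese, blue for weight loss), by diet group, with group means as bars, for Mmp25, Mmp9 and Mmp14. H3K4me1 at Mmp9 is seen in the 3 HHC libraries only, H3K4me3 at Mmp25 in the 3 HHC and 1 HC library, and H3K27me3 at Mmp25 and Mmp9 is lower in H and HC than in their controls.

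Markers of some other cells were also marked more often in HHC than in CCC, and those of others were not. Of 8 macrophage markers, 7 carried H3K4me3 in each HHC library and 1 to 3 in each CCC library, and 4 of them (Adgre1, Lyz2, Mrc1 and Trem2) met the rule for a gain. Of 6 lymphocyte markers, 4 to 6 carried it in HHC and none in CCC, and of 6 endothelial markers, 3 to 5 and 1. For H3K4me1, the mark gained at Mmp9, 2 to 3 of 8 macrophage markers were marked in HHC and 1 to 2 in CCC, with Csf1r gained, 1 to 4 of 6 endothelial markers and none, with Kdr gained, 0 to 3 of 6 lymphocyte markers and none, and 4 to 5 of 6 mural markers and 3. Itgam, another macrophage marker, had H3K4me3 in none of the HHC libraries, and Cd8a in 1 of 3. For H3K4me3, 2 to 3 of 6 mesothelial markers were marked in both HHC and CCC, as were 4 to 5 of 6 mural markers. Progenitor markers with H3K4me3 numbered 3 to 5 of 6 in HHC and 4 in CCC. For H3K4me1, mesothelial markers numbered 1 to 3 in both groups, and progenitor markers 3 to 5 in HHC and 3 to 4 in CCC. Adipocyte markers with H3K4me3 numbered 5 to 8 of 8 in HHC and 8 in CCC. No HH library had H3K4me3 at Mmp25 or H3K4me1 at Mmp9, yet some of these markers differed there too. For H3K4me3, 7 macrophage markers were marked in each HH library and 2 in each CC_l library. Endothelial markers numbered 6 beside 2 to 4, and lymphocyte markers 2 to 3 beside 0 to 2. For H3K4me1, macrophage markers numbered 2 to 4 in HH and 1 to 2 in CC_l. The part of these cells in the results for Mmp9, Mmp25 and Mmp14 was not tested, and in a bulk of nuclei more cells of another type and a change within adipocytes cannot be told apart.

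Of the remaining membrane-type enzymes, Mmp17 had the steadiest pair of marks. No library of Mmp17 lacked H3K4me3 (21 of 21) or H3K27me3 (20 of 20). Both marks were thus listed in 20 of 20 mice in which both were profiled, matched by group and replicate number, the only member of which this was true. Adamts17, a protease of fibrillin-rich matrix, followed with both in 19 of 20. At Mmp17 the width of H3K4me3 differed more between ages and cohorts than its presence: 56.9%, 68.6% and 66.0% of the window in C, 10.3%, 13.02% and 13.8% in H, and 71.1% and 66.6% in HH beside 61.2% and 79.3% in CC_l. The 3 H libraries did not overlap with C, but CC_s libraries on chow were as low, at 15.7%, 19.5% and 12.9%, and the exact permutation p over both cohorts was 0.05. Mmp15 had H3K4me3 in 21 of 21 libraries, Mmp24 had both marks in 10 of 20 mice, and Mmp16 had H3K27me3 with H3K4me3 in 5 of 20.

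Mmp19 and Mmp28 were the 2 metalloproteinases with the pattern of an active promoter. Mmp19 (chromosome 10, 128790910 to 128800824), a secreted enzyme of basement membrane, had H3K4me3 in 21 of 21 libraries. H3K27ac covered 63.3%, 31.6% and 41.5% of its window in C and nothing in the 3 H libraries. In HC it covered nothing, 23.1% and 26.1% beside 22.95% and 56.3% in CC_s, and in HH 17.5%, 58.1% and 56.15% beside 44.4% and 57.5% in CC_l. The absence was thus seen in H and not in HH. The loss of H3K27ac in H was found at 1.94% of all promoters and at 2 of 50 members, Mmp19 and Adamts15, and the loss at Mmp19 was also called in each of the 5 alternative settings. Mmp28 (epilysin), in contrast, had H3K27ac in every library. Mmp11 (stromelysin-3), whose window also overlaps that of Chchd10, had H3K4me3 mainly in the 25-week cohort: 17.85% and 42.4% in CC_l, 47.3% and 73.0% in HH, 42.85% and 30.2% in CCC and 27.01%, 90.1% and 57.4% in HHC, beside 1 of 6 chow libraries and 1 of 6 diet libraries of the 12-week cohort.

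Most proteoglycanase promoters, 4 of 7, had H3K4me3 with H3K27ac in chow libraries. Adamts1, Adamts5 and Adamts9, which cut versican and, for Adamts5, aggrecan in cartilage, had H3K4me3 and H3K27ac in 21 of 21 libraries each, as did Adamts6 outside this group. Adamts1 and Adamts5 lie next to each other on chromosome 16, with 98715 bp between their starts. Adamts15 and Adamts8 are another pair, divergent on chromosome 9 with starts 20110 bp apart, and they differed in state. Adamts15 had H3K4me3 in 19 of 21 libraries and H3K27ac in 8 of 9 chow libraries, whereas Adamts8 had H3K27me3 in 8 of 10 chow libraries and neither H3K27ac nor H3K4me1 in any library.

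Adamts15 (chromosome 9, 30899155 to 30922452) had 3 calls in the 16 comparisons of diet groups with their controls, as many as Adamts19. H3K27ac covered 40.4%, 33.02% and 27.7% of its window in C and nothing in the 3 H libraries, and 20.2% and 54.9% in CC_s and nothing in the 3 HC libraries. In the 25-week cohort it covered 17.8%, 61.0% and 3.22% in HH beside 79.2% and 66.8% in CC_l, and 7.55%, 52.6% and 65.96% in HHC beside 74.3% and none in CCC. The groups did not overlap in H, HC and HH, and did in HHC. It was the only member called lost for H3K27ac both in H and in HC, where the loss was found at 0.499% of all promoters and at 2 of 50 members. In obese mice the mean difference over both cohorts was -39.7 points of coverage, with an exact permutation p of 0.01 and 0.379 after adjustment over all promoters, which was the lowest adjusted value of any member. H3K4me1 differed in the same direction there, by -36.7 points (exact permutation p = 0.025, 1.0 adjusted), with 74.2%, 41.4% and 3.30% in C beside none, none and 1.08% in H. H3K27me3 was gained at Adamts15 in HHC, at 33.3%, 33.5% and 50.1%, with 18.65% in 1 of 3 HC libraries and none in the 16 others; peaks lay within 143 bp of the start in each HHC library, and H3K4me3 covered 70.9%, 72.9% and 68.3% in the HHC group. Keeping the stronger peaks only ended all 3 calls: with the stronger 50% of each library's peaks the difference in presence was -66.7 points in H, -50 in HC and, for H3K27me3, 66.7 in HHC.

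Adamts20 (chromosome 15, 94270163 to 94465418), a versican-cutting enzyme known from pigment cell migration, had H3K4me3 and H3K27me3 in most chow libraries. H3K4me3 covered 34.4%, 30.2% and 43.5% in C and nothing in the 3 H libraries, a loss found at 1.71% of all promoters. It was present in 1 of 3 CC_s and 1 of 3 HC libraries, in every CC_l, HH and CCC library and in 1 of 3 HHC libraries. H3K27me3 at Adamts20 covered 43.8%, 46.96% and 49.2% in C, nothing and 16.5% in H, 75.96% and 86.2% in CC_l, and 54.8% and 33.4% in HH. Both obese groups lay below their controls without overlap, by -37.7 points on average (exact permutation p = 0.0167, the smallest possible, 1.0 adjusted). With equal numbers of peaks no difference in H3K4me3 presence was left. Its promoter had 41 CpGs in 300 bases, in capitals here, at chr15:94404301-94404600 on the minus strand.
Adamts20: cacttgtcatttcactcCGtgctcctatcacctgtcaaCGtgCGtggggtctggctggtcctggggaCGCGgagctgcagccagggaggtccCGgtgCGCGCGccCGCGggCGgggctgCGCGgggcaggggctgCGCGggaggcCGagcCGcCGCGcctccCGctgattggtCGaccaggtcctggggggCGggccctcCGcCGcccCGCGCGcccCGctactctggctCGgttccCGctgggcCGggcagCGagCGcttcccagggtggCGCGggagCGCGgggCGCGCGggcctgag

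Acetylation across the active members was lower in H and in HC, as it was at most promoters. Of the 14 members with H3K27ac in most chow libraries, 14 had a lower mean coverage in H than in C, with a median difference of -33.9 points, beside 96.5% of 8867 such promoters and -21.9 points. In HC against CC_s it was again 14 of 14, with a median of -27.3 points, beside 77.7% and -8.63. In HH against CC_l 10 of 14 were lower, median -4.70, beside 56.3% and -1.81, and in HHC against CCC 3 of 14, median 6.25, beside 9.79% and 23.2. The 2 CCC libraries of H3K27ac stood apart, with peaks at 50.8% and 17.7% of all promoters. The choice of promoters by the same chow libraries favours a lower value in the other group. The peaks themselves were narrower: the median width was 1372 to 1765 bp in C, 477 to 801 bp in H and 672 to 906 bp in HC libraries, and the part of this width in the coverage of single promoters was not tested.

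At 6 members the lower H3K27ac coverage in obese mice had an unadjusted exact permutation p under 0.05, as at 9.2% of all promoters, namely Adamts15, Adamts5, Adamts6, Adamts12, Mmp19 and Timp3. None passed after adjustment, with adjusted p from 0.379 to 0.45. Adamts5 had 56.7%, 77.7% and 52.7% in C beside 24.4%, 12.4% and 18.15% in H, and 76.5% and 78.7% in CC_l beside 67.7%, 81.6% and 68.7% in HH, so the groups were apart in the first cohort and overlapped in the second. Adamts12, which cuts cartilage oligomeric matrix protein, had 72.7%, 76.4% and 66.3% in C beside 26.0%, none and none in H, and a difference in the second cohort of -0.533 points. Adamts6 differed by -18.2 points in the first and -4.48 in the second cohort.

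**Figure D5:**
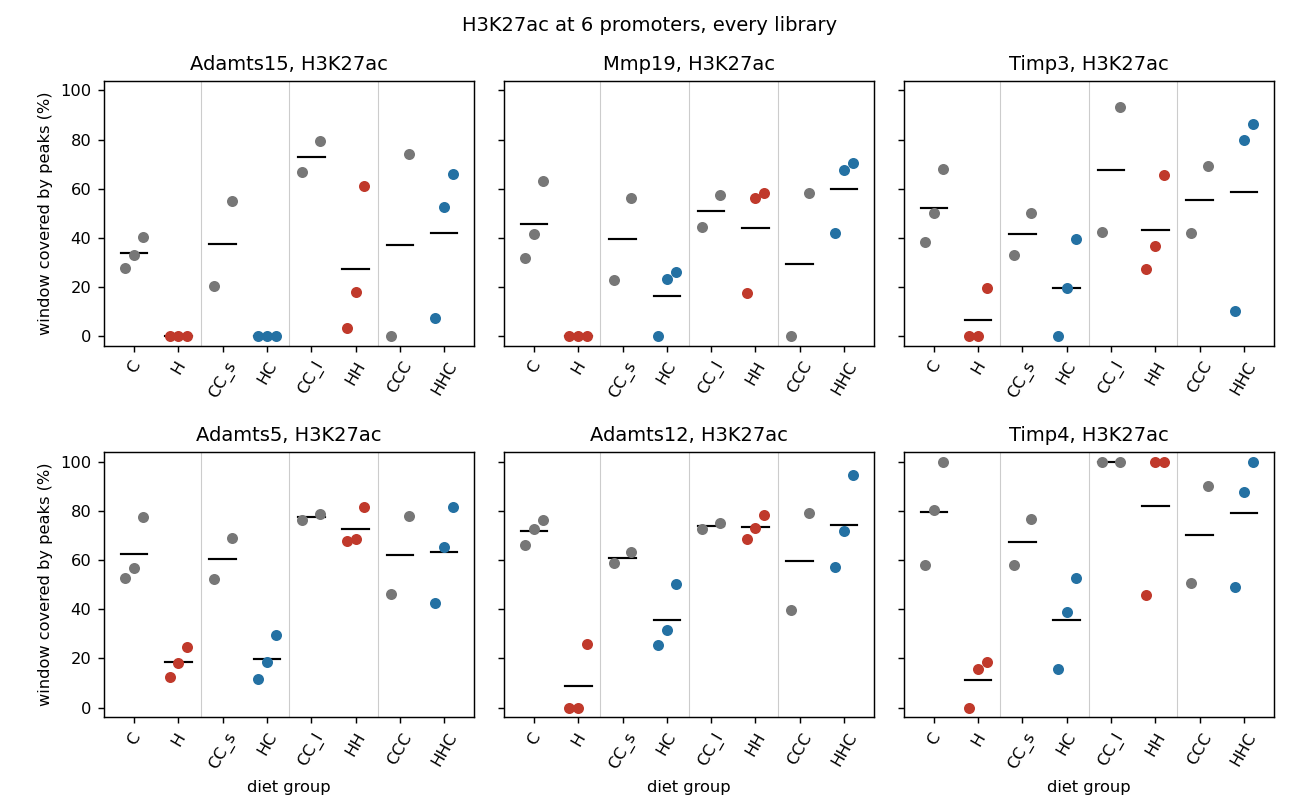
Percentage of the promoter window covered by H3K27ac peaks in every library (points; grey for chow, red for obese, blue for weight loss), by diet group, with group means as bars, at Adamts15, Mmp19, Timp3, Adamts5, Adamts12 and Timp4. H libraries lie below the C libraries at all 6, with no H3K27ac peak in H at Adamts15 and Mmp19.

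The procollagen N-proteinases Adamts2, Adamts3 and Adamts14, which remove the amino-terminal propeptide of fibrillar procollagens, formed a group with 1 state: H3K4me3 without H3K27ac or H3K27me3 in most chow libraries. Adamts14 (chromosome 10, 61197112 to 61273438) gained H3K27ac in HH, at 36.4%, 73.05% and 43.9% beside none in CC_l, a gain found at 0.448% of all promoters and at this member alone among the 50. It had 2.24% in 1 of 3 H libraries, and the exact permutation p over both cohorts was 0.05 (0.45 adjusted). With equal numbers of peaks the H3K27ac peak was in none of the HH libraries. After weight loss, H3K27ac at Adamts14 was present in 2 of 3 HHC libraries, at 1.62% and 34.5%, and in none of 2 CCC libraries, while in the 12-week cohort it was present in 1 of 3 HC libraries, at 13.3%, and in 1 of 2 CC_s libraries, at 22.99%. Markers of some other cells moved with the gain in HH. For H3K27ac 3 to 5 of 8 macrophage markers were marked in HH and 1 in CC_l, with Csf1r and Tyrobp gained. Endothelial markers numbered 1 to 5 of 6 in HH and 0 to 1 in CC_l. Progenitor markers numbered 2 to 4 of 6 in both groups, lymphocyte markers 0 to 1 of 6 and 0, and mesothelial markers 0 in both. Of 8 adipocyte markers 5 to 8 were marked in HH and 8 in CC_l, and of 6 mural markers 1 to 2 and 3. For H3K4me3 there were 7 macrophage markers in each HH and 2 in each CC_l library. Their part in the result for Adamts14 was not tested.

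H3K27me3 was also called at members with H3K4me3 in the 25-week cohort. In HHC against CCC it was gained at 1.37% of all promoters and at 3 members, Adamts1, Adamts14 and Adamts15. Adamts14 had 90.6%, 21.4% and 24.6% in HHC and none in CCC, but also 68.9% in 1 of 2 CC_l libraries and 78.6% and 42.5% in HH. Adamts1 had 91.3%, 28.6% and 40.4% in HHC and none in CCC, and 85.9% in the same CC_l library and 61.3% in 1 of 2 HH libraries, while H3K4me3 at Adamts1 covered 77.1% to 100% of the window in all 21 libraries. In HH against CC_l it was gained at 1.05% of all promoters and at Adamts3 and Adamtsl2. Adamts3 had 23.25% and 23.8% in HH and none in CC_l, with 57.8%, none and 34.95% in HHC. With equal numbers of peaks the calls at Adamts3, Adamts14 and Adamtsl2 were not made, and in a window of 500 bp that at Adamts1 was not. The CC_l library with the mark at Adamts1 and Adamts14 had peaks at 58.0% of the members and 27.1% of all promoters, the highest share of all promoters among the H3K27me3 libraries.

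H3K27me3 coverage was lower in obese mice at 4 members with an unadjusted exact permutation p under 0.05, as at 2.34% of all promoters: Adamts16, Adamts18, Adamts20 and Mmp2. Adamts18 (chromosome 8, 113697126 to 113848738) had 93.5%, 79.5% and 84.7% in C beside none and 20.02% in H, and 100% and 100% in CC_l beside 44.1% and 67.8% in HH, with no overlap in either cohort (-60.0 points, p = 0.0167 by the exact permutation test, the smallest possible, 1.0 adjusted). After weight loss Adamts18 overlapped with its controls in both cohorts. Adamts16 was lower in HC as well, at 61.8%, 30.3% and 27.9% beside 82.5%, 100% and 100% in CC_s, and at 62.3%, 100% and 60.1% in HHC beside 100% and 100% (exact permutation p = 0.02, 0.883 adjusted), the 1 member with a lower H3K27me3 coverage at p under 0.05 after weight loss, beside 3.28% of all promoters. Mmp2 had 65.5%, 65.6% and 45.8% in C beside none and 8.30% in H, and 100% and 66.8% in CC_l beside 65.2% and 72.3% in HH. Over the 18 members with H3K27me3 in most chow libraries the median difference was -24.0 points in H and -28.7 in HC, beside -24.5 and -23.8 at all such promoters. In the 25-week cohort it was -3.55 in HH, with 10 of 18 lower, and -0.956 in HHC, with 9 of 18 lower, beside -4.57 and -3.07. H3K27me3 peaks covered 16.9 and 19.97 Mb of the genome in the 2 H libraries and 8.54 to 36.3 Mb in HC, beside 43.03 to 64.1 Mb in C and 43.2 to 60.5 Mb in CC_s, and the part of this in the members' values was not tested.

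Among the other ADAMTS enzymes Adamts19, linked to heart valve disease, had H3K4me3 in 1 of 3 C and in every CC_l and CCC library, with 19.3% and 50.3% and with 60.2% and 57.6% of its window, and in no H, CC_s, HC, HH or HHC library. It was called lost in HH, as 0.481% of promoters were, and in HHC, as 0.375% were. By the treatment entries of the labels instead of the titles, the difference in HH turned to 50 points in the other direction and that in HHC was -50 points, so that neither call holds under that reading. H3K27me3 at Adamts19 was listed in 18 of 20 libraries and absent from the 2 H libraries, a loss found at 1.61% of promoters. One C library had 3.22% coverage, and all 5 alternative settings ended the call. Adamts7, which cuts cartilage oligomeric matrix protein, had H3K4me3 in 21 of 21 libraries. H3K27me3 at Adamts7 was present in 2 of 3 HC libraries, at 8.95% and 15.4%, and in 2 of 3 HHC libraries, at 83.9% and 29.6%, and in no CC_s or CCC library (exact permutation p = 0.08 for presence, 1.0 adjusted). Among the obese groups it was in 1 of 2 H libraries, at 12.15%, and in both HH libraries, at 44.6% and 58.8%, beside none of 3 C and 1 of 2 CC_l libraries, at 25.3%. Adamts13, which cuts von Willebrand factor, had H3K27me3 in most chow libraries and H3K4me3 in none, while Adamts6, Adamts10 and Adamts12 had H3K4me3 with H3K27ac.

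The ADAMTS-like genes, some products of which bind fibrillin microfibrils, were spread over 4 states. Adamtsl2 (chromosome 2, 27079379 to 27108981) had H3K4me1 in 22 of 22 libraries with H3K4me3 in 7 of 21. H3K27ac covered 38.2% and 50.9% in CC_s and nothing in the 3 HC libraries, nothing in H beside 43.6% in 1 of 3 C libraries, and 48.04% in 1 of 3 HH libraries beside 25.7% and 44.6% in CC_l. In HHC it covered 72.5% and 32.8% in 2 of 3 libraries, beside 70.9% in 1 of 2 CCC libraries. H3K27me3 was found in no chow library at Adamtsl2 and in 7 of 10 diet libraries, at 9.25% in 1 of 2 H, 4.50% and 45.2% in 2 of 3 HC, 73.6% and 22.7% in HH, and 94.7% and 19.55% in 2 of 3 HHC libraries. The exact permutation p for its presence was 0.0667 in obese mice and 0.08 after weight loss, both 1.0 adjusted. It is shown for its low CpG content beside the H3K27me3, with CpGs in capitals, at chr2:27079129-27079428.
Adamtsl2: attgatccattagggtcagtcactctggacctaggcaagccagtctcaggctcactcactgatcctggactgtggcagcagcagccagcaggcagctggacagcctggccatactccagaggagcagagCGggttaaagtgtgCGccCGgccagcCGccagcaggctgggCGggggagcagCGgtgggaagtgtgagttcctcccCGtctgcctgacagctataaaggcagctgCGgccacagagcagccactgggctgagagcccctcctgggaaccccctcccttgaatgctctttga

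Adamtsl3 and Adamtsl5 had H3K4me3 with H3K27me3 in most chow libraries, and Adamtsl4 had H3K4me3 with H3K27ac. Adamtsl3 lost H3K4me1 in HHC, as 0.494% of promoters did, with 20.6% and 45.1% in CCC and none in HHC, but the CCC libraries were the only chow libraries of 10 to have it, and with equal numbers of peaks no difference was left. Adamtsl4 had a higher H3K4me3 coverage after weight loss, at 64.3%, 40.9% and 47.3% in HC beside 40.4%, 37.8% and 45.02% in CC_s, and at 85.9%, 95.3% and 96.1% in HHC beside 50.8% and 81.2% in CCC. The exact permutation p was 0.01, and 1.0 adjusted. Mmp23 differed likewise, by 26.96 points (exact permutation p = 0.035, 1.0 adjusted), and such a higher coverage was found at 2.25% of all promoters. Adamtsl5 had a lower H3K4me3 coverage in obese mice, at 19.85%, none and none in H beside 37.3%, 37.8% and 58.6% in C (-31.2 points, exact permutation p = 0.0333, 1.0 adjusted). Such a lower coverage with an unadjusted p under 0.05 was found at 2 of 50 members, Adamtsl5 and Adamts12, beside 2.54% of all promoters.

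The 4 inhibitors were in 3 different states. Timp3, which binds to the matrix and also inhibits ADAMTS enzymes, and Timp4, which is abundant in fat, had H3K4me3 with H3K27ac. Timp2, the partner of Mmp14 in activating Mmp2, had H3K4me3 mostly without H3K27ac. Timp1, whose RNA is induced in many inflamed tissues, had no peak of any mark within its window in 84 libraries. The closest peak of H3K27ac to the start of Timp1 in any library lay 6982 bp away, that of H3K4me3 19516 bp, that of H3K27me3 36585 bp and that of H3K4me1 49625 bp. Its promoter is shown because it alone among the inhibitors was unmarked, at chrX:20869916-20870215, with 8 CpGs in capitals.
Timp1: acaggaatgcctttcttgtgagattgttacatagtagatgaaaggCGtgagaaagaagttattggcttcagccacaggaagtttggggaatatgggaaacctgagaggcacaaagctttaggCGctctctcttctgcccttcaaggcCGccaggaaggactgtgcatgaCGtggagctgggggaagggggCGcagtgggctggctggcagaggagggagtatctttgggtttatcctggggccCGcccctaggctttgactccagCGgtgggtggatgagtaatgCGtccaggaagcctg

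Timp3 (chromosome 10, 86300372 to 86349506) had H3K27ac over 49.96%, 68.2% and 38.5% of its window in C beside 19.4%, none and none in H, and over 93.1% and 42.4% in CC_l beside 65.7%, 27.2% and 36.7% in HH. The groups were apart in the first cohort and overlapped in the second, and the difference was -35.2 points (exact permutation p = 0.025, 0.416 adjusted). At Timp4 (chromosome 6, 115241892 to 115252205) H3K27ac covered 58.0%, 100% and 80.45% in C beside 15.8%, none and 18.4% in H, with 100% in both CC_l libraries beside 45.98%, 100% and 100% in HH (exact permutation p = 0.05, 0.45 adjusted). H3K4me1 at Timp4 covered 81.1%, 71.1% and 26.3% in C beside none, none and 24.7% in H, and 83.7% and 62.8% in CC_l beside 43.7%, 61.1% and 67.6% in HH (-33.5 points, exact permutation p = 0.035, 1.0 adjusted). Timp4 and Adamts15 were the 2 members with such a lower H3K4me1 coverage, beside 0.902% of all promoters. After weight loss 1 of 3 HC libraries and 1 of 3 HHC libraries had an H3K4me1 peak at Timp4, beside every CC_s and CCC library. For Timp2 the H3K4me3 coverage differed most between the cohorts: it was at most 44.4% in libraries of the 12-week cohort, while it was 27.2% and 55.7% in CC_l, 70.3% and 61.4% in HH, 82.5% and 72.0% in CCC and 75.4%, 80.3% and 88.65% in HHC. Age and processing of the cohorts cannot be told apart.

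Over all 16 comparisons of a mark and a diet group with its control, members were called 19 times, 9 gained and 10 lost, at 12 of the 50 genes, and 5 comparisons had no member called. There were 4 calls in H, 3 in HC, 4 in HH and 8 in HHC. Shares of all promoters per group, or of all genes called at least once, are not given. The rules met by members in HHC held at 1.39% and 0.375% of all promoters (H3K4me3 gained and lost), 3.98% and 0.494% (H3K4me1) and 1.37% (H3K27me3 gained). H3K27ac was gained there at 2.32% and at no member. For H the shares were 1.71%, 1.94% and 1.61%, for HC 0.499% and 0.828%, and for HH 0.481%, 0.448% and 1.05%. The 19 calls were 2.38% of the pairs of a member and a comparison, beside 1.76% for all promoters. The 8 comparisons between chow groups of different age and type of chow gave 6 calls, or 1.5%, beside 1.14%. Beside those at Mmp14 and Adamts4, H3K4me3 was gained at Adamts8 in CCC against CC_l, as at 0.462% of promoters, and H3K4me1 at Adamts3 and Adamtsl3, as at 2.31%. Only Adamts15 H3K27ac and Adamts19 H3K4me3 were called in the same direction in the obese and the weight-loss group of a cohort. No member, and no protein-coding promoter, passed an adjusted p of 0.05 in any of the tests of presence or coverage for 4 marks in obese mice and after weight loss; at an unadjusted p under 0.05 there were 0 members for presence, beside 0.299% of all promoters over the 8 tests, and at most 6 for coverage, those of H3K27ac in obese mice. With 3 libraries against 3 the smallest p that 1 cohort alone can give is 0.1, and over both cohorts it was 0.005 to 0.0167 depending on the numbers of libraries.

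Of 46 partner genes of the proteases, chosen for their role, 13 had H3K4me3 with H3K27ac in most chow libraries and 11 had H3K4me3 without H3K27ac or H3K27me3. Another 4 had H3K4me3 with H3K27me3, 8 had H3K27me3 without H3K4me3, and 10 had none of the marks in most. Furin, which activates the membrane-type precursors, and Lrp1, an uptake receptor for proteases, were in the first group. Reck, a membrane inhibitor of metalloproteinases, was in the second. In HHC against CCC, 3 of 46 gained H3K4me1, the plasminogen activators Plat and Plau and the receptor Plaur, beside 3.98% of all promoters, and 1 lost it, beside 0.494%. In HH against CC_l, 2 of 46 gained it, Plaur and Cd44, beside 2.0%. H3K4me3 was gained at 2 of 46 in HH, Papln and Ctss, a cathepsin of antigen-presenting cells, beside 1.32%, and at 1 in HHC, Ctss, beside 1.39%, and lost at 2 in H, beside 1.71%. Papln also met the rule for a gain of H3K4me3 between the chow groups, in CCC against CC_l, as 0.462% of promoters did. The H3K4me3 libraries of HH and CC_l include some whose title and treatment entry name different groups. H3K27ac was gained at 2 of 46 in HHC, beside 2.32%, and lost at 1 each in H, HH and HC, beside 1.94%, 0.403% and 0.499%. H3K27me3 was gained at 3 of 46 in H, beside 1.29%, and at 3 in HHC, beside 1.37%, and lost at 2 in H, beside 1.61%, and at 1 in HH, beside 0.943%.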

How the data were processed

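The authors profiled 4 histone marks by CUT&Tag in adipocyte nuclei and deposited 84 peak lists, 1 per library. Per the study's methods and the submitters' processing notes, reads were trimmed with Trim Galore 0.6.6, aligned to mm10 with Bowtie2 2.4.4, converted with SAMtools 1.13 and bedtools 2.30, and peaks were called with SEACR 1.3 in stringent mode at a threshold of 0.01. The signal columns deposited by the authors are summed and highest coverage per peak, whole numbers in all 84 lists and not scaled between libraries, so signal was not compared across libraries. The lists give neither read counts nor sequencing depth, no interval was computed from them, so that no model of counts could be fitted.

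Promoters were windows of 2000 bp either side of 41438 start sites of protein-coding transcripts of 21851 genes (GENCODE vM21, basic set, GRCm38, without the mitochondrial genome). A promoter was marked when a peak overlapped it by at least 1 bp. No blacklist was applied. Groups came from the sample titles. Obese and weight-loss groups were compared with age-matched chow groups by the gained and lost rule, and by a two-sided exact permutation test with labels exchanged within the 2 cohorts, adjusted over all 21851 promoters by Benjamini-Hochberg. The labels number the libraries of a group as biological replicates. For counts per mouse, libraries of different marks with the same group and replicate number in their titles were taken as the same mouse. That match is uncertain for the 4 H3K4me3 libraries whose title and treatment entry differ. Python 3.11.15, numpy 2.4.6, pandas 2.3.3 and matplotlib 3.10.9 were used, and the test was tested on simulated data. Alternatives were narrower windows, a longer overlap, equal numbers of peaks per library (those of highest signal), the stronger 50% of peaks, the treatment entries of the labels, a replicate block and leaving out each library. Genes described were those called, those with the smallest p for presence in each comparison and a list of 17 well-known members. Members described outside this rule, such as Adamts6, Adamts16, Adamts18, Mmp27 and Mmp28, and the partners Furin, Lrp1 and Reck were chosen after their values were seen. The members and lists were chosen with earlier results of these data known.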

Additional observations from a re-analysis of the deposited data

How the results depend on the processing

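The number of members called depended on the peaks retained. When every library was limited to equal numbers of peaks, calls went from 2 to 1 for H3K4me3 in obese mice, from 0 to 2 for H3K4me1 in obese mice, from 3 to 0 for H3K4me1 after weight loss and from 3 to 0 for H3K27me3 in obese mice, and the members with H3K4me3 in most chow libraries from 28 to 18. With the stronger 50% of peaks, calls were 1 for H3K4me1 and 6 for H3K27me3 in obese mice, and members with H3K4me1 in most chow libraries went from 12 to 7. In a window of 500 bp they were 1 for H3K4me1 and 6 for H3K27me3 in obese mice, and with an overlap of at least 200 bp 1 for H3K4me1 in obese mice. By the treatment entries, H3K4me3 calls went to 1 in obese mice and to 1 after weight loss, and the difference of Adamts19 in HH turned from -100 to 50 points. The share of all promoters called under these settings is not given, so the counts say nothing particular to the members. The cause of these changes was not tested.

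Of the 19 single calls, 5 were also made with equal numbers of peaks, 4 with the stronger 50%, 17 at 1000 bp, 15 at 500 bp and 18 with the longer overlap. Leaving out a library, 96 repeats over those calls, ended none of them, which the rule itself favours, since fewer libraries make it easier to meet. Leaving out 1 library gave 2 to 4 calls for H3K4me3 in obese mice and 2 to 5 after weight loss (5 without HHC replicate 2), 3 to 8 and 2 to 7 for H3K27ac (8 without HH replicate 3, 7 without CCC replicate 1), 0 to 3 and 3 to 8 for H3K4me1 (3 without H replicate 3 or CC_l replicate 1, 8 without HHC replicate 2), and 3 to 11 and 4 to 12 for H3K27me3 (11 without H replicate 2 or CC_l replicate 1, 12 without HHC replicate 2). A library left out loosens the rule for every promoter. The share of all promoters called is not given for these repeats, so their counts say nothing particular to the members. With 1 library left out, members marked in most chow libraries numbered 28 to 30 for H3K4me3, 14 for H3K27ac, 12 to 14 for H3K4me1 and 18 to 19 for H3K27me3.

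Samples with the same replicate number did not deviate together (correlations from -0.442 to 0.312 in 36 pairs, 9 of them over 0.1, and 16 of 74 over 0.1 for different numbers), so the numbers were not taken as pairs. With the replicate block 0 members passed an adjusted p of 0.05, as without it, but the smallest p such a test can give was 0.0625 to 0.25. The unknown depth limits every statement on a missing peak.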
